A study of Homo sapiens with 9 samples.

Results

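The mRNAs described are those of mTORC1, of the TSC complex and RHEB that control it, and of its best-known substrates. They were chosen by name, with earlier results of these data known, as MTOR, RPTOR, MLST8, AKT1S1, DEPTOR, RHEB, TSC1, TSC2, RPS6KB1 and EIF4EBP1. All 10 symbols matched 1 gene each among the 48162 genes of the deposited tables, and all 10 passed the filter on low counts that left 15776 genes to test. RNA was sequenced from SKMEL28, an established human melanoma cell line, in 9 libraries, 3 from each of 3 groups. Every group was grown in DMEM with serum, transduced with lentivirus and selected with puromycin. The lentivirus carried a short hairpin against GFP in the control (shCont), a hairpin against p16 in shp16, and hairpins against p16 and ATR in shp16+shATR. According to the study, the libraries of a group are technical replicates. Every error and p-value below therefore covers only the spread between such libraries, not that between separate infections. The questions were whether these mRNAs changed when p16 was knocked down, and whether they changed again when ATR was knocked down as well.

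mTORC1 is a kinase complex that promotes the synthesis of protein, lipid and nucleotides when nutrients and growth factors are plentiful. MTOR is its catalytic subunit, RPTOR (Raptor) recruits substrates, MLST8 binds the kinase domain, and AKT1S1 (PRAS40) and DEPTOR are inhibitory subunits. RHEB is the small GTPase that switches the kinase on at the lysosome, and TSC1 and TSC2 form the complex that turns RHEB off. RPS6KB1 encodes S6K1, a kinase that acts on ribosomal protein S6, and EIF4EBP1 encodes 4E-BP1, which holds the cap-binding factor eIF4E until mTORC1 phosphorylates it. Phosphorylation and location of these proteins, by which the pathway is switched, are not measured by RNA sequencing.

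The stretch of DNA before the start of the gene is shown for MTOR, the 1 member called below, and, to set beside it, for its activator RHEB, which was not called with all libraries. The sequences are from RefSeq on GRCh38.p14, written 5′ to 3′ along the gene, and hold the 250 bases upstream of the annotated start. Capitals mark the CCAAT box, searched for as CCAAT on both strands, so that the reverse form reads ATTGG. MTOR is on the minus strand (chr1:11262552-11262801) and RHEB is on the minus strand (chr7:151519896-151520145).
MTOR upstream: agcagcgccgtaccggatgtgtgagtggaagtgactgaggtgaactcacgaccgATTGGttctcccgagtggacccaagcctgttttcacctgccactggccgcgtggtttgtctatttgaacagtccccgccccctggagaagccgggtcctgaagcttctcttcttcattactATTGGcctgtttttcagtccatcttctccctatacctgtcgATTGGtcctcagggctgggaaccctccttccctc
RHEB upstream: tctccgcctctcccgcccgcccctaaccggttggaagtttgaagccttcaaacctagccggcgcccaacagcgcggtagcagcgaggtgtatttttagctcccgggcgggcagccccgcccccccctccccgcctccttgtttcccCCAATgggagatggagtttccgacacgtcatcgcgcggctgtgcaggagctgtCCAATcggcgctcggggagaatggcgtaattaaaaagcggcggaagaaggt
The MTOR stretch held 3 CCAAT boxes, all in the reverse form, that began 196, 75 and 34 bases before the start, and the RHEB stretch held 2, at 104 and 51 bases. At least 1 CCAAT box was present in 32.0% of 35116 promoter stretches of this length, and 3 or more in 2.93%. Neither stretch held an E-box (CACGTG, in 6.34% of the 35116) or an E2F site written as TTTCGCGC or TTTGGCGC (in 0.968%), on either strand. Of the other members, RPTOR, TSC1 and RPS6KB1 had none of these motifs in the same window, and 1 of the 2 windows annotated for TSC2 held an E-box. MLST8, AKT1S1, DEPTOR and EIF4EBP1 had no entry. A match of letters describes the sequence only, since binding to it was not measured.

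Library totals lay between 17314662 and 23588174 counts. Of the targeted genes, CDKN2A, which encodes p16, measured 162, 113 and 103 CPM (counts scaled to a common library total and TMM-normalized) in shCont replicates 1 to 3, 78.1, 93.5 and 99.9 in shp16, and 82.6, 90.0 and 82.4 in shp16+shATR libraries a, b and c. No shp16 library overlapped shCont, yet the difference missed the threshold (log2 fold change −0.48 ± 0.16 SE, adjusted p = 0.0723, edgeR quasi-likelihood test with Benjamini-Hochberg adjustment over all genes). ATR measured 45.9, 93.5 and 96.4 CPM in shCont, 83.4 to 93.5 in shp16 and 39.9 to 41.0 in shp16+shATR, and fell by 1.12 on the log2 scale from shp16 (SE 0.22, edgeR adjusted p = 0.0128). With shp16 replicate 1 or any 1 shp16+shATR library left out that adjusted p was up to 0.0707. CDKN2A fell by 0.57 in shp16+shATR against shCont (edgeR adjusted p = 0.0263), a call that was lost without any 1 shp16+shATR library (up to 0.0923). The ATR level of shCont replicate 1 was thus near that of the ATR knockdown. This library stood apart more widely. Its log2 CPM, taken as deviations from the mean of the 9 libraries, correlated with gene length across genes (Spearman rho −0.351, against −0.00405 to 0.216 in the other 8), and its difference from the other shCont libraries was 68.5 and 83.4 in chi-square per gene. For shp16 replicate 1 the same measure was 37.9 and 37.2, whereas it was 1.94 to 9.66 for the other pairs within a group. For each member, fold changes in at least 1 comparison are therefore given also without these libraries. For other genes, the libraries whose omission ended a call are named, except for PIK3CB and the cell type markers, where this was not examined. The labelled cell type was checked by 8 melanocytic markers, all of which were measured, with a summed level of 13385 to 14972 CPM in shCont, 7774 to 13012 in shp16 and 10945 to 13043 in shp16+shATR. The lowest sum was that of shp16 replicate 1, where PMEL was at 3260 CPM against 6300 or more elsewhere. TYRP1 (log2 −0.43) and S100B (−0.68) fell in shp16, and from there TYRP1 fell again (−0.88) and S100B rose (0.67) in shp16+shATR. Of 7 markers of other cell types with an entry, PTPRC and CD3E had 0 counts in every library, ALB had at most 2 and EPCAM at most 11. KRT5 rose from 0 counts in every shCont library to 39 to 63 in shp16 and 7 to 39 in shp16+shATR, and KRT14 from 0 to 3 counts to 43 to 57 and 22 to 53, while LUM did not pass the test in any comparison. The summed level of these 7 genes overlapped between all groups (32.6 to 42.2, 31.3 to 47.2 and 31.6 to 35.7 CPM). Most of it was LUM, at 26 to 42.8 CPM, while KRT5 and KRT14 reached at most 2.99 and 2.96 CPM. The sum thus cannot show the rises of KRT5 and KRT14. Both passed the edgeR test in shp16 against shCont (adjusted p = 0.00123 and 0.000388). The part of these 7 genes in the results below was not tested.

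Levels were compared between genes on the FPKM scale, which divides by gene length. EIF4EBP1 was by far the most abundant of the 10, with a mean of 163 FPKM over the 9 libraries, above 98.2% of the genes tested. MTOR (38.1), RHEB (35.6), MLST8 (34.5) and AKT1S1 (29.7) followed. Neighbours among these overlapped in their ranges over libraries. MTOR was above RHEB, and RHEB above MLST8, in 5 of 9 libraries each, so that order does not hold beyond the spread. MLST8 was above AKT1S1 in 8 of 9 libraries, and AKT1S1 did not overlap the next gene. TSC2 (14.7) and RPTOR (12.1) came next, and TSC2 was above RPTOR in 9 of 9 libraries although the ranges touched. RPS6KB1 (4.91) and TSC1 (4.37) lay near the middle of the genes tested (percentiles 47.0 and 44.6) and overlapped each other. DEPTOR was lowest at 0.365 FPKM, 11 to 32 counts per library, which limits every statement on it. TSC2 mRNA thus exceeded that of its partner TSC1 in every library, and the inhibitory subunit AKT1S1 exceeded the other inhibitor DEPTOR in every library.

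**Figure D1:**
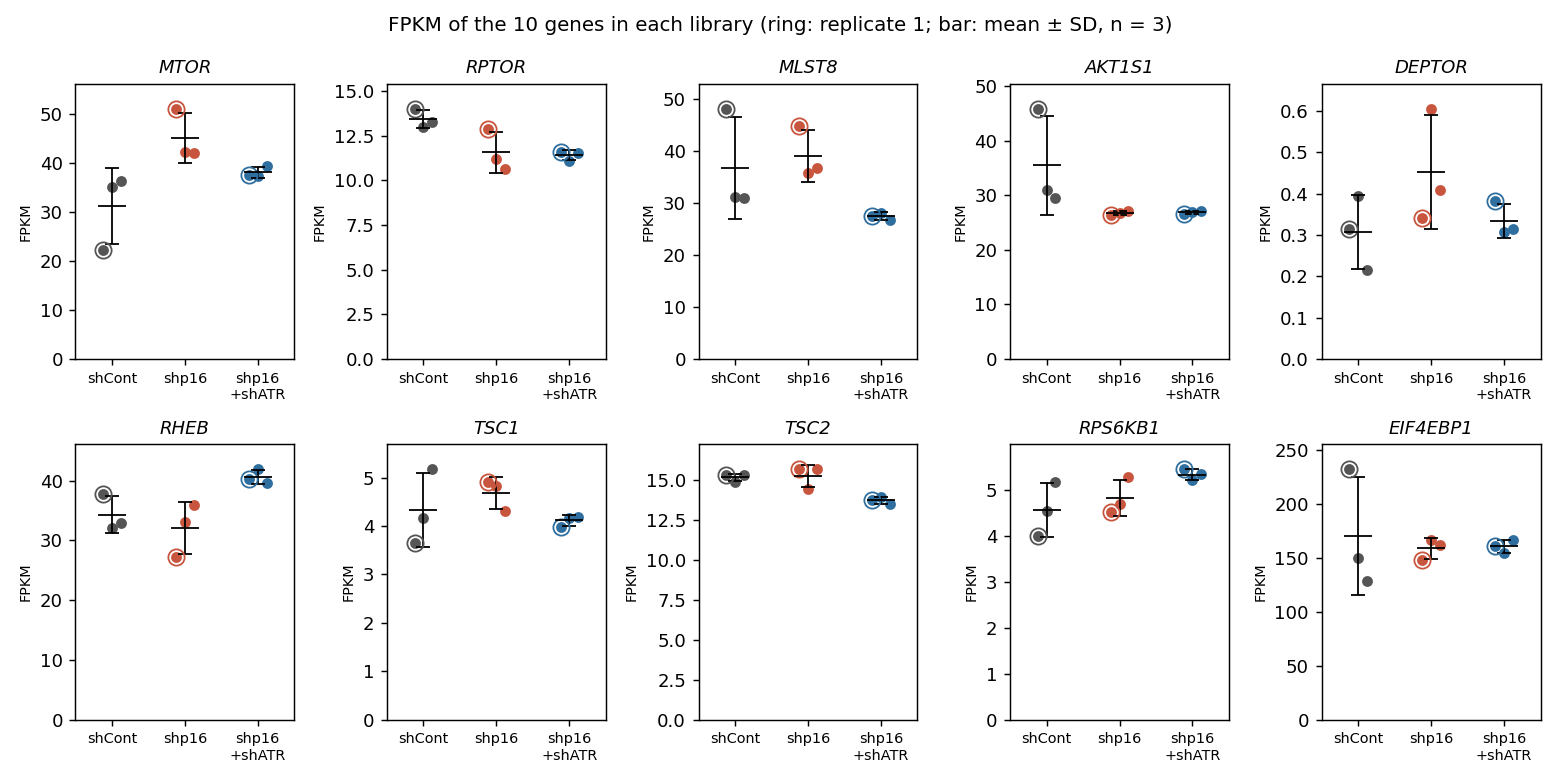
FPKM (linear axis from 0) of each of the 10 genes in the shCont, shp16 and shp16+shATR libraries. Points are libraries, rings mark replicate 1 of a group, and bars give the mean ± SD (n = 3). The ringed shCont library is the lowest of the 9 for MTOR (22.3) and the highest for MLST8 (48.2), AKT1S1 (45.8) and EIF4EBP1 (232), while the shp16+shATR libraries lie close together.

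In shp16 against shCont, MTOR was the 1 member of 10 that passed the test, and it was higher. Of all genes tested 14.8% passed in this comparison, 1141 higher and 1198 lower, so the share of members called was near that of the background. The median log2 fold change of the 10 was 0.05, against −0.02 over all genes, and 2 of them had an unadjusted p under 0.05. Members whose libraries did not overlap between the groups numbered 2 (MTOR higher, AKT1S1 lower), where 33.6% of all genes did not overlap. None of the 10 passed the edgeR test in shp16+shATR against shp16, where 6.22% of all genes did, although 2 members had an unadjusted p under 0.05. DESeq2 also called none. The median of the members was −0.10 (0.00 over all genes), and 4 members did not overlap (RHEB higher, MTOR, MLST8 and TSC2 lower; 37.7% of all genes). In shp16+shATR against shCont, too, none passed either test, where 23.6% of all genes passed edgeR's, and 2 had an unadjusted p under 0.05. Here the median was −0.08 (−0.02 over all genes) and 7 did not overlap (MTOR, RHEB and RPS6KB1 higher, RPTOR, MLST8, AKT1S1 and TSC2 lower; 41.5% of all genes). The comparisons share groups and are not independent of each other.

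**Figure D2:**
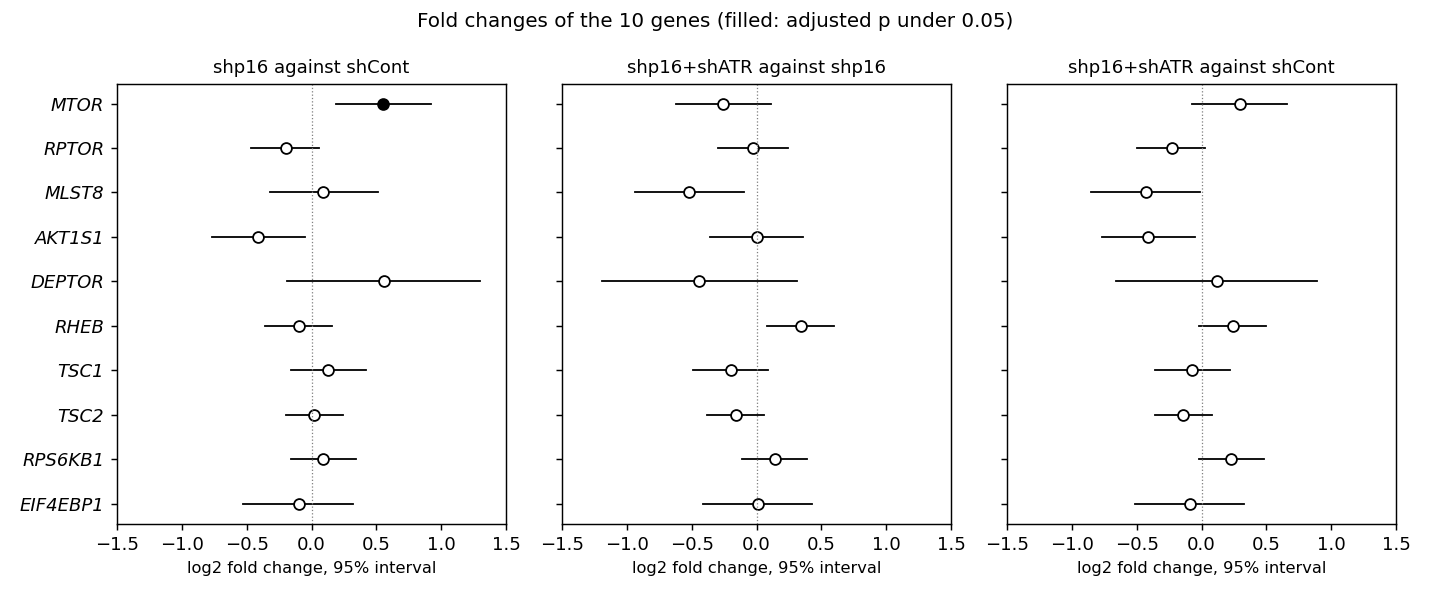
Log2 fold change (x axis) of the 10 genes from edgeR in the 3 comparisons, with 95% intervals as bars. The filled point marks an adjusted p under 0.05. MTOR in shp16 against shCont, at 0.55, is the only filled point, and the widest intervals are those of DEPTOR.

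MTOR, the kinase itself (ENSG00000198793), lies on chromosome 1 from 11166592 to 11322564 (minus strand) in the coordinates of the table. It measured 201, 293 and 313 CPM in shCont, 472, 357 and 356 in shp16, and 325, 319 and 348 in shp16+shATR libraries a, b and c. Every shp16 library was above every other library, and those of shp16+shATR were above those of shCont. In bulk RNA such as this, fewer cells that make an mRNA and less of it per cell cannot be told apart. The rise in shp16 was 1.47-fold (log2 0.55 ± 0.17 SE, 95% interval 0.19 to 0.92, edgeR adjusted p = 0.0456). Against shp16, shp16+shATR was 0.26 lower on the log2 scale (interval of the log2 fold change −0.62 to 0.11, edgeR adjusted p = 0.437). Against shCont it was 0.30 higher (−0.07 to 0.66, edgeR adjusted p = 0.228). Both values were smaller with a library left out. The value against shp16 was −0.11 without shp16 replicate 1 (edgeR adjusted p = 0.815). That against shCont was 0.12 without shCont replicate 1 (adjusted p = 0.474). The rise in shp16 stayed positive in all 20 alternatives (log2 0.38 to 0.68) but was called in 6 of them. Without shCont replicate 1 it was 0.38 (edgeR adjusted p = 0.0366), and without shp16 replicate 1 it was 0.41 (adjusted p = 0.159). The call was also lost without shCont replicate 2 (0.0681), without shp16 replicate 2 or 3 (0.0698 and 0.0691) and without shp16+shATR library a, b or c (0.0819, 0.0732 and 0.0695, all edgeR adjusted p). A value of 0.41 (adjusted p = 0.0202) was left when the trend with gene length was removed from each library. MTOR overlaps ANGPTL7 and MTOR-AS1 on the opposite strand, which reached 107 and 9 counts, against 4559 or more for MTOR.

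The genes whose pattern over the 9 libraries was most like that of MTOR were TEX2, ACLY and NCOA6, with a root mean square difference in centred log2 CPM of 0.0574, 0.0585 and 0.0602. The median over 10736 genes was 0.371. MTOR was lowest in shCont replicate 1 (201 CPM) and highest in shp16 replicate 1 (472 CPM), which both differed widely from their groups. The likeness was not recomputed without these libraries, and what lies behind it was not tested. ACLY encodes the enzyme that makes cytosolic acetyl-CoA from citrate.

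Of the other subunits, RPTOR, the scaffold that recruits substrates (chromosome 17 from 78518619 to 78940171), was at 93.6, 80.3 and 84.3 CPM in shCont, 66.3 to 87.9 in shp16 and 69.9 to 75.4 in shp16+shATR. Its log2 fold change was −0.20 in shp16, −0.03 in shp16+shATR relative to shp16 and −0.23 in shp16+shATR relative to the control, and none passed the edgeR test (adjusted p 0.197 to 0.927). In CPM only the shp16+shATR and shCont libraries did not overlap, while in FPKM shp16 and shCont did not overlap either. The value in shp16 was −0.15 without shCont replicate 1 (edgeR adjusted p = 0.36) and −0.33 without shp16 replicate 1 (adjusted p = 0.0902). That of shp16+shATR relative to shp16 turned to 0.10 without the latter (adjusted p = 0.725).

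MLST8, which binds the kinase domain (chromosome 16 from 2254249 to 2259417), measured 106, 63.8 and 65.2 CPM in shCont, 101, 73.9 and 75.7 in shp16, and 58.2, 58.8 and 57.5 in shp16+shATR. Replicate 1 was the highest of its group in both shCont and shp16, and all shp16+shATR libraries were below all others. The log2 fold change was 0.09 in shp16 against shCont (SE 0.19, edgeR adjusted p = 0.794), −0.52 in shp16+shATR against shp16 (SE 0.19, adjusted p = 0.143) and −0.43 in shp16+shATR against shCont (adjusted p = 0.126). The comparisons with shCont changed in value when shCont replicate 1 was left out, and that with shp16 changed in its adjusted p alone. Without this library MLST8 was higher in shp16 than in shCont (log2 0.37, edgeR adjusted p = 0.0387) and lower in shp16+shATR than in shp16 (−0.52, adjusted p = 0.0045), while the difference from shCont was −0.15 (adjusted p = 0.355). Without shp16 replicate 1 the first of these turned to −0.066 (adjusted p = 0.882) and the second was −0.37 (adjusted p = 0.402). BRICD5, on the opposite strand, overlaps MLST8 and reached 131 counts, against 1009 or more for MLST8.

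The inhibitory subunit AKT1S1 (chromosome 19 from 50372295 to 50381716, minus strand) was at 174, 109 and 107 CPM in shCont, 102, 94.9 and 96.0 in shp16, and 96.5 to 100 in shp16+shATR. The high library was shCont replicate 1, and the other 2 shCont libraries lay just above all of shp16 and shp16+shATR. The log2 fold change was −0.41 in shp16 (SE 0.17, edgeR adjusted p = 0.122), and −0.41 in shp16+shATR against shCont (adjusted p = 0.0974). Without shCont replicate 1 these were −0.15 and −0.14 (edgeR adjusted p = 0.138 and 0.128), and without shp16 replicate 1 they were −0.44 and −0.41 (adjusted p = 0.195 and 0.116). Against shp16, shp16+shATR differed by 0.00 (interval −0.36 to 0.36). TBC1D17 overlaps AKT1S1 on the opposite strand with up to 1880 counts, against 1676 or more for AKT1S1, and the strand setting of the counting is not given in the sources used here, so reads of the shared stretch cannot be told apart. DEPTOR, the other inhibitor (chromosome 8 from 120885957 to 121063152), was at 0.549 to 0.976 CPM in shCont, 0.935 to 1.52 in shp16 and 0.779 to 0.98 in shp16+shATR, and the 95% intervals of its log2 fold changes ran from −0.19 to 1.30, from −1.19 to 0.31 and from −0.66 to 0.89. Without shCont replicate 1 or shp16 replicate 1 the value in shp16 was 0.60 or 0.69 (edgeR adjusted p = 0.309 and 0.289). A difference was not detectable at this depth.

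RHEB, the GTPase that activates mTORC1 (chromosome 7 from 151163098 to 151217206, minus strand), measured 81.8, 64.2 and 67.7 CPM in shCont, 60.3, 66.8 and 72.6 in shp16, and 83.5, 85.6 and 83.7 in shp16+shATR. All 3 shp16+shATR libraries were above all others, closely followed by shCont replicate 1. The log2 fold change was −0.10 in shp16 against shCont (interval −0.36 to 0.16), 0.34 in shp16+shATR against shp16 (SE 0.12, edgeR adjusted p = 0.121) and 0.24 in shp16+shATR against shCont (adjusted p = 0.164). Without shCont replicate 1 both rises in shp16+shATR passed the edgeR test, at 0.34 (adjusted p = 0.0054) against shp16 and 0.35 (adjusted p = 0.00551) against shCont. Without shp16 replicate 1 the value against shp16 was 0.27 (adjusted p = 0.309). RHEB and MLST8 were thus the members whose call in shp16+shATR against shp16 turned on a library outside that comparison. Such a library enters the fit through the normalization, the filter and the shared estimate of the spread. The biological coefficient of variation of the fit was 0.149 with all 9 libraries and 0.0903 without shCont replicate 1. In a fit of the shp16 and shp16+shATR libraries alone both genes were called as well. The pseudogenes RHEBP1, RHEBP2 and RHEBP3 had at most 7 counts in any library.

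**Figure D3:**
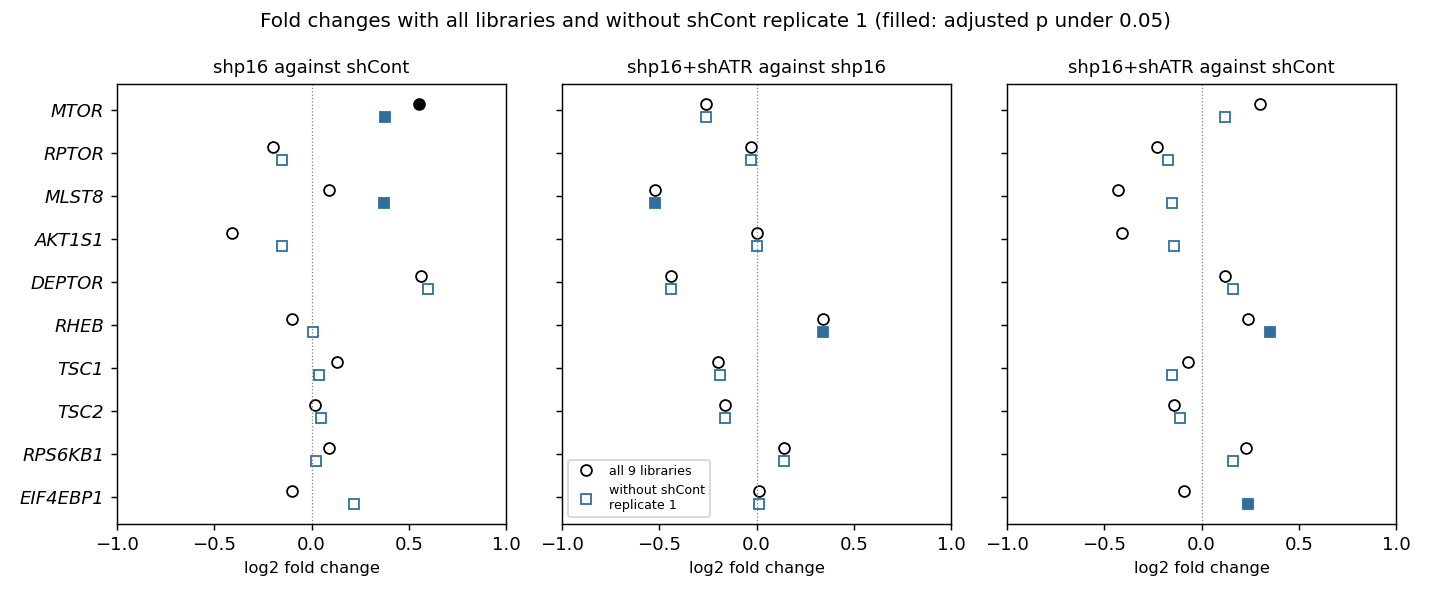
Log2 fold change (x axis) of the 10 genes in the 3 comparisons, from all 9 libraries (circles) and without shCont replicate 1 (squares). Filled symbols mark an edgeR adjusted p under 0.05. Without that library MTOR and MLST8 are filled in the first panel, MLST8 and RHEB in the second, and RHEB and EIF4EBP1 in the third.

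The TSC mRNAs did not pass the test in any comparison. TSC1 (chromosome 9 from 135766735 to 135820020, minus strand) was at 32.8 to 44.1 CPM in shCont, 36.1 to 45.1 in shp16 and 34.3 to 36.7 in shp16+shATR, with log2 fold changes of 0.13, −0.20 and −0.07 (edgeR adjusted p 0.464 to 0.758). TSC2, which carries the GTPase-activating domain (chromosome 16 from 2097466 to 2138716), was at 88.3 to 97.9, 86.5 to 103 and 84.4 to 84.6 CPM, with log2 fold changes of 0.02, −0.16 and −0.14 (edgeR adjusted p 0.343 to 0.932). Its shp16+shATR libraries were below all others by a small margin. In shp16 against shCont TSC1 was 0.04 without shCont replicate 1 and 0.048 without shp16 replicate 1, and TSC2 was 0.048 and −0.045 (edgeR adjusted p 0.702 to 0.879). The other values of both genes stayed below 0 without either library. The 95% intervals of TSC2 all lay within −0.38 and 0.24, the narrowest of the 10. TSC2 overlaps PKD1 and NTHL1 on the opposite strand, with up to 3387 and 553 counts, and shared reads cannot be told apart there either. The ratio of TSC1 to TSC2 on the FPKM scale was 0.286 ± 0.0495 (SD, n = 3) in the control, 0.308 ± 0.0303 after p16 knockdown and 0.300 ± 0.0100 after knockdown of both. The groups overlapped, and the exact two-sided permutation p was 0.7, 0.8 and 0.7 for the 3 comparisons. With 3 libraries against 3 this test cannot go below 0.1. All 9 such tests of the 3 ratios described here had a Benjamini-Hochberg adjusted p of 0.9.

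Unlike TSC1 and TSC2, the mRNA of TBC1D7, the third subunit of the TSC complex, passed the test in every comparison. It measured 133, 108 and 103 CPM in shCont, 136, 160 and 155 in shp16, and 226, 220 and 211 in shp16+shATR, with no overlap between any of the groups in CPM. In FPKM shCont replicate 1 (82.9) and shp16 replicate 1 (82.4) overlapped. It rose by 0.39 on the log2 scale in shp16 (SE 0.12, edgeR adjusted p = 0.0497), by a further 0.54 in shp16+shATR (SE 0.12, adjusted p = 0.0221), and by 0.93 in all (adjusted p = 0.000253). The total rise kept its call without any 1 library (adjusted p up to 0.00228). Leaving out 1 library ended the first call for 7 of 9 libraries, all but shCont replicate 1 and shp16 replicate 1, with adjusted p up to 0.161. It ended the second for all 6 libraries of shp16 and shp16+shATR, with adjusted p up to 0.108. TBC1D7 differed from TSC1 and TSC2 in its call, and whether its fold change differed from theirs was not tested. RHEBL1, the paralog of RHEB, did not pass in any comparison.

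The substrates among the members did not pass the test either. RPS6KB1 (chromosome 17 from 57970447 to 58027925) was at 22.4, 23.5 and 27.6 CPM in shCont, 24.6 to 27.6 in shp16 and 27.6 to 29.3 in shp16+shATR, with log2 fold changes of 0.09, 0.14 and 0.23 (edgeR adjusted p 0.172 to 0.649). Without shCont replicate 1 these were 0.023, 0.14 and 0.16, and without shp16 replicate 1 they were 0.095, 0.13 and 0.23 (adjusted p 0.175 to 0.89). EIF4EBP1 (chromosome 8 from 37887859 to 37917883) measured 247, 147 and 130 CPM in shCont, 161, 166 and 161 in shp16, and 164, 156 and 173 in shp16+shATR. Replicate 1 of shCont was far above all others, while the other 2 shCont libraries were below all others. The log2 fold changes were −0.10, 0.01 and −0.09 (edgeR adjusted p 0.76 to 0.982). Without shCont replicate 1 the sign of the comparisons with shCont turned, to 0.22 in shp16 (adjusted p = 0.0616) and 0.24 in shp16+shATR (adjusted p = 0.0395). Without shp16 replicate 1 they were −0.095 and −0.091 (adjusted p = 0.846 and 0.783). The pseudogenes EIF4EBP1P1 and EIF4EBP1P2 had at most 7 counts in any library.

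Its paralog EIF4EBP2, which also holds eIF4E, changed in all 3 comparisons. It measured 68.8, 74.4 and 81.5 CPM in shCont, 119, 103 and 108 in shp16, and 56.4, 54.7 and 58.5 in shp16+shATR, with no overlap between groups. It rose by 0.55 on the log2 scale in shp16 (SE 0.11, edgeR adjusted p = 0.00508), fell by 0.96 from there in shp16+shATR (SE 0.11, adjusted p = 0.000831) and was 0.41 lower than in shCont (adjusted p = 0.0171). The first 2 calls held without any 1 library, and the third was lost without shCont replicate 3 or any shp16+shATR library (edgeR adjusted p up to 0.0806). EIF4E itself was at 48.3 to 54.7 CPM in shCont, 47.2 to 49.9 in shp16 and 43.8 to 45.4 in shp16+shATR and was not called (edgeR adjusted p 0.102 to 0.576). On the FPKM scale EIF4EBP1 and EIF4EBP2 together were 40.6 ± 16.8 times as abundant as EIF4E in shCont, 41.7 ± 0.832 times in shp16 and 43.6 ± 1.90 times in shp16+shATR (SD, n = 3). The ratio was 59.9 in shCont replicate 1 and 32.5 and 29.4 in the others of that group, so that the groups overlapped (exact permutation p = 0.9, 0.3 and 0.6). Its size rests on the gene lengths used for FPKM, 1020 bases for EIF4EBP1, 7257 for EIF4EBP2 and 11523 for EIF4E. Mean FPKM in shCont, shp16 and shp16+shATR were 170, 159 and 161 for EIF4EBP1 and 10.4, 15.1 and 7.78 for EIF4EBP2. The sum is thus mostly EIF4EBP1 and can hardly show the changes of EIF4EBP2.

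The wider pathway was described by lists of genes, to be read against all genes tested, of which 14.8%, 6.22% and 23.6% were called in the comparisons of shp16 with shCont, of shp16+shATR with shp16 and of shp16+shATR with shCont, with median log2 fold changes of −0.02, 0.00 and −0.02. Values given below for the 3 comparisons keep this order. Among the other mTORC1 substrates, 9 of 10 genes were tested, and 2, 2 and 3 of them were called. GRB10, an adaptor that dampens insulin receptor signalling, rose in shp16 together with EIF4EBP2 (log2 0.37, edgeR adjusted p = 0.0265), and 0 fell. When shp16+shATR was set against shp16, 0 rose and 2 of 9 fell, EIF4EBP2 and MAF1, a repressor of RNA polymerase III (−0.80, edgeR adjusted p = 0.0163), beside 6.22% of all genes called, 430 higher and 551 lower. Against shCont, TFEB, a transcription factor of lysosomal genes, rose in shp16+shATR from 0.849 to 1.37 CPM to 2.38 to 3.18 CPM (log2 1.18, edgeR adjusted p = 0.00764), and MAF1 (−0.73, adjusted p = 0.00786) and EIF4EBP2 fell. The medians of the list were 0.08, −0.09 and 0.05 (all genes −0.02, 0.00 and −0.02). The call of GRB10 was lost without shCont replicate 2, any shp16 library or shp16+shATR library a (edgeR adjusted p up to 0.0867), and that of MAF1 against shp16 without shp16 replicate 1 or shp16+shATR library a or b (up to 0.0968).

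Of the 4 mTORC2 subunits outside mTORC1, PRR5 rose in shp16 (log2 0.76, edgeR adjusted p = 0.0259), none was called in shp16+shATR against shp16, and MAPKAP1 fell in shp16+shATR against shCont (−0.37, edgeR adjusted p = 0.0484). The counts of 1, 0 and 1 of 4 stand beside 14.8%, 6.22% and 23.6% of all genes, and the medians were 0.16, −0.21 and −0.02. Both calls were lost when single libraries were omitted. For PRR5 these were shCont replicates 2 and 3 and shp16 replicates 2 and 3 (edgeR adjusted p up to 0.0814), and for MAPKAP1 shCont replicate 3, shp16 replicates 2 and 3 and each shp16+shATR library (up to 0.15). RICTOR, the scaffold that defines mTORC2, was at 22.8 CPM in shCont replicate 1 and at 47.1 to 57.0 CPM in the other 8 libraries, and was not called (edgeR adjusted p 0.405 to 0.803). The ratio of RPTOR to RICTOR on the FPKM scale was therefore 6.11 in shCont replicate 1 and 1.91 to 2.35 elsewhere (exact permutation p = 0.2, 0.3 and 0.5).

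Of the 12 PI3K to AKT genes tested of 13, INSR, the insulin receptor, fell in shp16 from 11.7 to 15 CPM to between 1.90 and 3.74 CPM (log2 −2.30 ± 0.29 SE, edgeR adjusted p = 0.000344). It was at 0.75, 1.77 and 2.05 CPM in shp16+shATR (−3.11 against shCont, adjusted p = 3.93e-05). AKT1 fell in shp16+shATR against shp16 (−0.42, edgeR adjusted p = 0.026), the 1 call among the 12, a share near the 6.22% of all genes. Against shCont, the kinase subunit PIK3CB rose in shp16+shATR (0.56, edgeR adjusted p = 0.0293), and AKT1 fell as INSR did (−0.42, adjusted p = 0.00883). PIK3CB was at 99, 151 and 166 CPM in shCont replicates 1 to 3 and at 195 to 217 CPM in shp16+shATR. Whether its call held with a library left out was not examined. In the 3 comparisons, 1, 0 and 3 of the 12 were called higher and 1, 1 and 2 lower. These stand beside 14.8%, 6.22% and 23.6% of all genes called. Medians were 0.23, −0.01 and 0.27 (all genes −0.02, 0.00 and −0.02). Against shp16 the call of AKT1 was lost without any 1 of the 6 libraries compared (edgeR adjusted p up to 0.151) and against shCont without shp16+shATR library b (0.0574).

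Among the 10 energy and stress genes, DDIT4, which encodes the mTORC1 inhibitor REDD1, rose in each comparison. It measured 56.7, 53.6 and 50.3 CPM in shCont, 69.0, 78.8 and 80.8 in shp16, and 109, 106 and 101 in shp16+shATR, with no overlap. Its log2 fold changes were 0.51, 0.47 and 0.97 (SE 0.10, edgeR adjusted p = 0.00732, 0.0224 and 6.57e-05). The second was not called without any 1 of the libraries compared (adjusted p up to 0.116). PRKAA2, a catalytic subunit of the energy sensor AMPK, had 100, 110 and 94 counts in shCont, 1, 2 and 0 in shp16 and 1 in each shp16+shATR library (edgeR adjusted p = 3.6e-06 and 2.79e-06 against shCont). With counts of 0 to 2, the size of the fall against shCont is not given, nor a fold change between shp16 and shp16+shATR. The other catalytic subunit PRKAA1, at 53.1 to 97.7 CPM, was not called in any comparison. No other gene of this list was called, so that 2, 1 and 2 of 10 passed (all genes 14.8%, 6.22% and 23.6%), and its medians were −0.06, 0.08 and 0.25.

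Of the 8 translation factors below S6K and 4E-BP, RPS6, the ribosomal protein phosphorylated by S6K, rose in shp16 (log2 0.54, edgeR adjusted p = 0.0236), as did EIF4B, a helper of the eIF4A helicase (0.43, adjusted p = 0.0243). PDCD4, which blocks eIF4A, rose in shp16+shATR against shp16 (0.64, edgeR adjusted p = 0.00634) and against shCont (0.57, adjusted p = 0.00321). EIF4B (0.52, edgeR adjusted p = 0.00615) and POLDIP3 (0.32, adjusted p = 0.0466) also rose against shCont. The genes called, 2, 1 and 3 of 8, stand beside 14.8%, 6.22% and 23.6% of all genes. Fold changes below 0, none of them called, were found for 2, 4 and 1 of the 8, and the medians were 0.31, −0.01 and 0.30 (all genes −0.02, 0.00 and −0.02). The calls of PDCD4 held without any 1 library. The call of RPS6 was lost without shCont replicate 2 or 3 or any shp16 library (edgeR adjusted p up to 0.0843). That of EIF4B in shp16 was lost without shCont replicate 2, shp16 replicate 1 or 2 or shp16+shATR library a (up to 0.0857), and that of POLDIP3 without 7 of the 9, all but shCont replicate 1 and shp16 replicate 1 (up to 0.176).

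**Figure D4:**
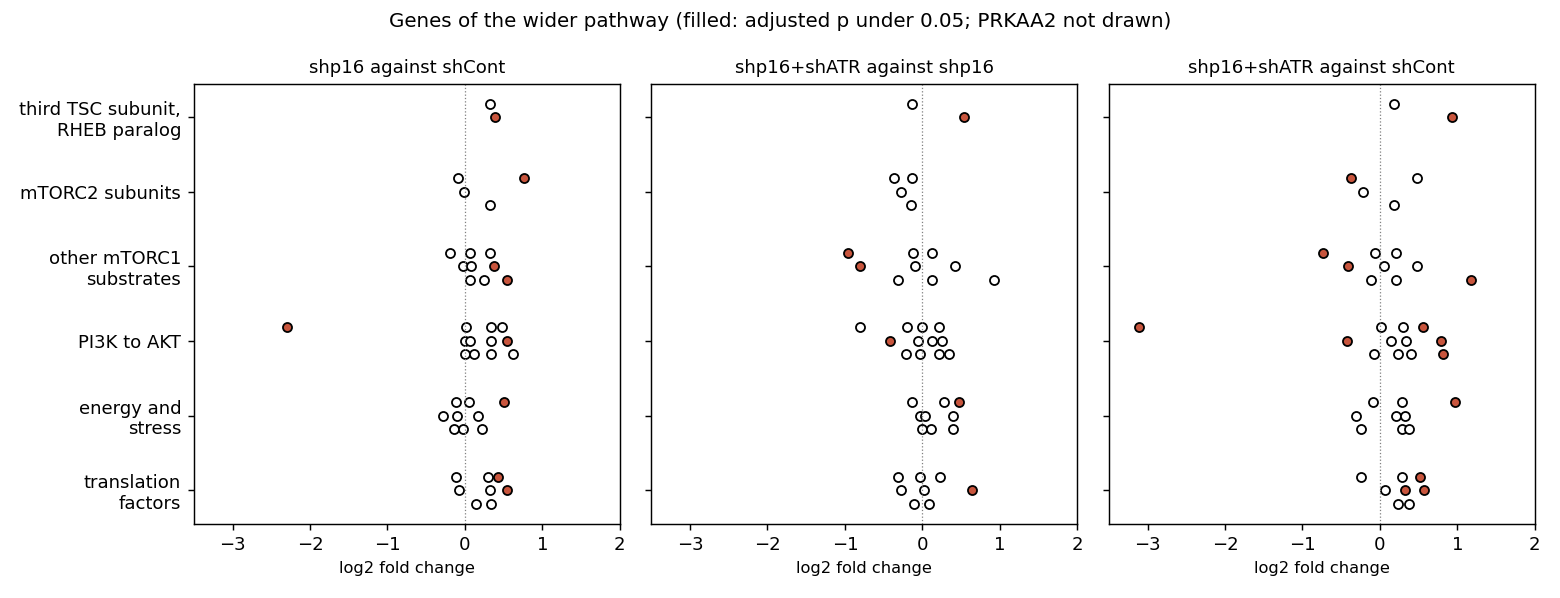
Log2 fold change (x axis) of the tested genes of 6 pathway lists in the 3 comparisons, 1 point per gene, spread vertically within a list for legibility. Filled points mark an edgeR adjusted p under 0.05, and PRKAA2, with 0 to 2 counts in shp16, is not drawn. The point farthest to the left is INSR (−2.30 and −3.11 against shCont), and TBC1D7 is filled in all 3 panels.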

How the data were processed

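Total RNA of SKMEL28 cells was sequenced by a service provider. The submitters' processing notes name STAR 2.6.1 and GRCh38. Yet 0 of the 10 members have the start and end that GENCODE 29 gives on GRCh38. Of the 45341 genes with the same identifier there, 261 do. Gene positions are therefore printed as deposited, with a build that does not match GRCh38 and that the sources used here do not settle. The upstream stretches are on GRCh38.p14, so their positions cannot be set against those of the genes. The authors deposited raw counts per gene, without normalization, and FPKM, which equal each count divided by gene length and library total (checked in shCont replicate 1, largest relative difference 1.6e-07). The 3 shp16+shATR count columns share 1 name and are called libraries a, b and c. The FPKM columns carry replicate numbers. Symbols with no entry or too few counts (PECAM1, EIF4EBP3, PIK3R2 and others) were not tested. For PIK3R2 the first entry of that symbol was used, with 0 to 6 counts per library. Whether the symbol has another entry was not checked, so these counts do not give the level of the gene.

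Counts were normalized by TMM, filtered with filterByExpr (minimum count 10) and tested with edgeR 4.0.16 (quasi-likelihood, R 4.3.3) in 1 fit of all 9 libraries, with Benjamini-Hochberg adjustment over 15776 genes at a threshold of 0.05. CPM are TMM-normalized. SE and intervals (95%) come from the same fit. Ratios of FPKM were tested by exact permutation in scipy 1.17.1. In simulated data (shp16 against shCont, 15440 genes, 200 changed by a log2 of 1 or 1.5) 200 were recovered, with 8 other calls. The simulated libraries shared a common spread, smaller than the biological coefficient of variation of the real fit (0.149), and none stood apart. Changes as small as those of the members were not simulated, so this recovery does not give the power for them. Same-numbered libraries did not deviate together (r of −0.303 to 0.289 over 9 pairs), so the fits are unpaired.

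Named are the members, CDKN2A, ATR, TBC1D7, RICTOR and EIF4E, of each pathway list up to 4 called genes with the smallest adjusted p in a comparison, and for a called member the 3 genes with a mean CPM of at least 5 and the most similar pattern. PIK3CB, RHEBL1, PRKAA1 and the genes overlapping a member were added after their values were seen. Some genes that this rule names are not reported here. Members and lists were chosen with earlier results of these data known. Alternatives were DESeq2 1.42.0, 2 other scalings, 2 other filters, a fit of only the groups compared, limma 3.58.1 on log2(FPKM + 1) and log2(FPKM + 0.1), the replicate number as a block, and each library left out. Removal of each library's trend with gene length, by a spline of 5 degrees of freedom, was chosen after seeing the data.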

Additional observations from a re-analysis of the deposited data

How the results depend on the processing

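Of 580 recomputed fold changes of the members, 527 kept their direction and side of the threshold, 14 lost and 12 gained a call, and 27 changed sign, 18 of these with a library left out. Of the sign changes 1 was also called (EIF4EBP1, shp16+shATR against shCont, without shCont replicate 1). Causes were not tested. In shp16 against shCont the count of members called was 0 under upper-quartile scaling, library size only, only the groups compared and both limma fits, and 2 without a filter (MTOR and AKT1S1). In shp16+shATR against shp16 it was 1 without a filter (MLST8) and 2 with only the groups compared (RHEB and MLST8), and in shp16+shATR against shCont 2 without a filter (MLST8 and AKT1S1) and 1 with the length trend removed (RHEB). It ranged from 0 to 2 in each comparison with 1 library left out. Genes called numbered 1186 and 2878, in place of 2339 and 981, with only the groups compared, and with 1 library left out ranged from 1344 to 4192, from 292 to 3223 and from 2354 to 5395. With the replicate number as a block in limma the calls were 1513, 481 and 2985 genes and 0 members in each comparison, and in edgeR on shCont and shp16 they were 423 genes and 0 members. Upper-quartile scaling moved the share of higher calls from 48.8% to 38.5% in shp16 against shCont and from 43.8% to 54.2% in shp16+shATR against shp16.

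Sign changes without a library left out were these, as log2 fold changes. With the length trend removed, in shp16 against shCont, TSC1 was −0.033, TSC2 −0.099, EIF4EBP1 0.0048, MAPKAP1 0.012 and AKT1 −0.19, in shp16+shATR against shp16 EIF4EBP1 was −0.034, and against shCont GRB10 was −0.0082. Under upper-quartile scaling TSC2 (−0.042) and AKT1 (−0.059) in shp16 and RPTOR (0.0087) in shp16+shATR against shp16 turned. Without a filter MAPKAP1 (0.0027) in shp16 and AKT1S1 (−0.013) and EIF4EBP1 (−0.0012) in shp16+shATR against shp16 turned, and with only the groups compared AKT1S1 (−0.00051). AKT1 in shp16 was −0.0074 by library size only, −0.0077 in limma with 1 added, −0.0083 with 0.1 added and −0.0077 with the replicate block. From CPM, whose weights differ, the log2 ratio of EIF4EBP1 plus EIF4EBP2 to EIF4E in shp16+shATR against shp16 was −0.19 in place of 0.064. Leaving out 1 library moved this ratio between −0.083 and 0.43, 0.04 and 0.1, and −0.019 and 0.49 in the 3 comparisons, and that of TSC1 to TSC2 between −0.00027 and 0.25, −0.11 and 0.029, and −0.034 and 0.21. For RPTOR to RICTOR in shp16 against shCont, −0.64, it was −0.17 without shCont replicate 1. Leaving out 1 library turned the sign of some fold changes that were not called with all libraries. In shp16 against shCont these ranged from −0.066 to 0.37 for MLST8, −0.17 to 0.0075 for RHEB, −0.045 to 0.079 for TSC2, −0.28 to 0.22 for EIF4EBP1, −0.12 to 0.33 for ATR, −0.12 to 0.072 for MAPKAP1, −0.065 to 0.28 for MAF1 and −0.024 to 0.047 for AKT1. In shp16+shATR against shp16 they ranged from −0.11 to 0.10 for RPTOR, −0.021 to 0.032 for AKT1S1, −0.026 to 0.048 for EIF4EBP1, −0.52 to 0.84 for PRKAA2 (0 to 2 counts, which support no fold change) and −0.028 to 0.066 for POLDIP3, and in shp16+shATR against shCont from −0.082 to 0.29 for DEPTOR, −0.15 to 0.074 for TSC1, −0.26 to 0.24 for EIF4EBP1 and −0.13 to 0.40 for RICTOR.

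Groups of 3 libraries, taken as technical replicates, limit the precision, and DEPTOR, at 11 to 32 counts, is limited by depth. Counting error alone is small for the other 9 members.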
